A study of Homo sapiens with 10 samples.

Results

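The genes described here are those of red cell formation that the arrays cover: globins, enzymes that make and break down haem, proteins of the red cell membrane and its skeleton, and receptors on red cell precursors. They were taken as all probe sets that the platform annotation assigns to 37 listed members, also where a probe set names several members and no other gene. Of the 37 members, 34 had a probe set and 3 (GYPB, GYPC and GYPE) had none. The 34, out of 9144 genes named by the annotation, were covered by 51 of the 12625 probe sets on the array. Of the 51, 48 entered the test, which ran over 12558 probe sets, and 3 are array control probe sets of TFRC that were kept out of it. HBA1, HBA2, HBG1, HBG2 and RHCE were reached only through probe sets shared with a near-identical gene, so that a signal there cannot be assigned to 1 gene of the pair.

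The study set 2 groups of cultured human cells against each other: a chronic myeloid leukaemia line sensitive to the alkylating drug cyclophosphamide (5 arrays, called sensitive) and a subline resistant to it (5 arrays, called resistant). Chronic myeloid leukaemia is driven by the BCR-ABL fusion kinase. The labels give neither the name of the line, nor how resistance was raised, nor whether the subline is 1 clone. They do not state that the samples of a group were separate cultures, and the spread behind every p-value may therefore be technical.

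Red cell precursors switch on globin, haem and membrane genes together under factors such as GATA1, TAL1 and KLF1. Alpha-type and beta-type globin chains assemble around haem, which is made by a chain of enzymes from aminolevulinate synthase to ferrochelatase, and haem is broken down by way of biliverdin. The membrane of the red cell carries the anion exchanger and the Rh complex and is held in shape by a spectrin skeleton.

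A value is a MAS5 signal, a linear intensity in arbitrary units. Differences are resistant minus sensitive on the log2(signal + 114.8) scale, where 114.8 is the 20th percentile of all signals, so the change of dim probe sets is understated. A probe set was called at a Benjamini-Hochberg adjusted p under 0.05 in limma over all 12558 probe sets, and adjusted p-values are from that fit unless a permutation test is named. The limit of an array is the 95th percentile of 32 control probe sets with no human target, and it lay between 319.7 and 739.8. Where no array of 1 group exceeded its limit, a called change is also given as "at least N-fold": there each array of the dim group counts with its limit, or with its signal where that is higher, and the mean log2 of these is set against that of the bright group. Arrays of the bright group count with their signal. Where some of them lay under their limit, the value is no strict bound and is written without "at least". Signals were compared between groups, not between probe sets.

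In resistant cells 6 member probe sets rose. They measure the delta globin gene HBD, the biliverdin reductase genes BLVRA and BLVRB, the Rh-associated glycoprotein gene RHAG, the pair RHD and RHCE (1 of 4 shared probe sets) and the transferrin receptor gene TFR2. A single probe set fell, for CD59, which shields cells from complement. The other 41 were not called, among them all probe sets of the other globins, of the 8 haem synthesis enzymes, of the spectrin skeleton, of the anion exchanger SLC4A1 and of the erythropoietin receptor EPOR. Called were thus 7 of 48 member probe sets (14.6%), beside 931 of all 12558 (7.41%). The 6 higher stand beside a background of 4.42%, and the 1 lower beside 2.99%. Without sensitive replicate 2 the count was 4. The median difference of the 48 was 0.18, beside 0.029 for all probe sets, and 33 of the 48 (68.8%) had a positive difference, beside 53.3% of all. The groups did not overlap in 7 of the 48, beside 8.5% of all probe sets. Several of the 48 measure the same gene and are not independent, and the members were chosen with earlier results of these data known.

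**Figure D1:**
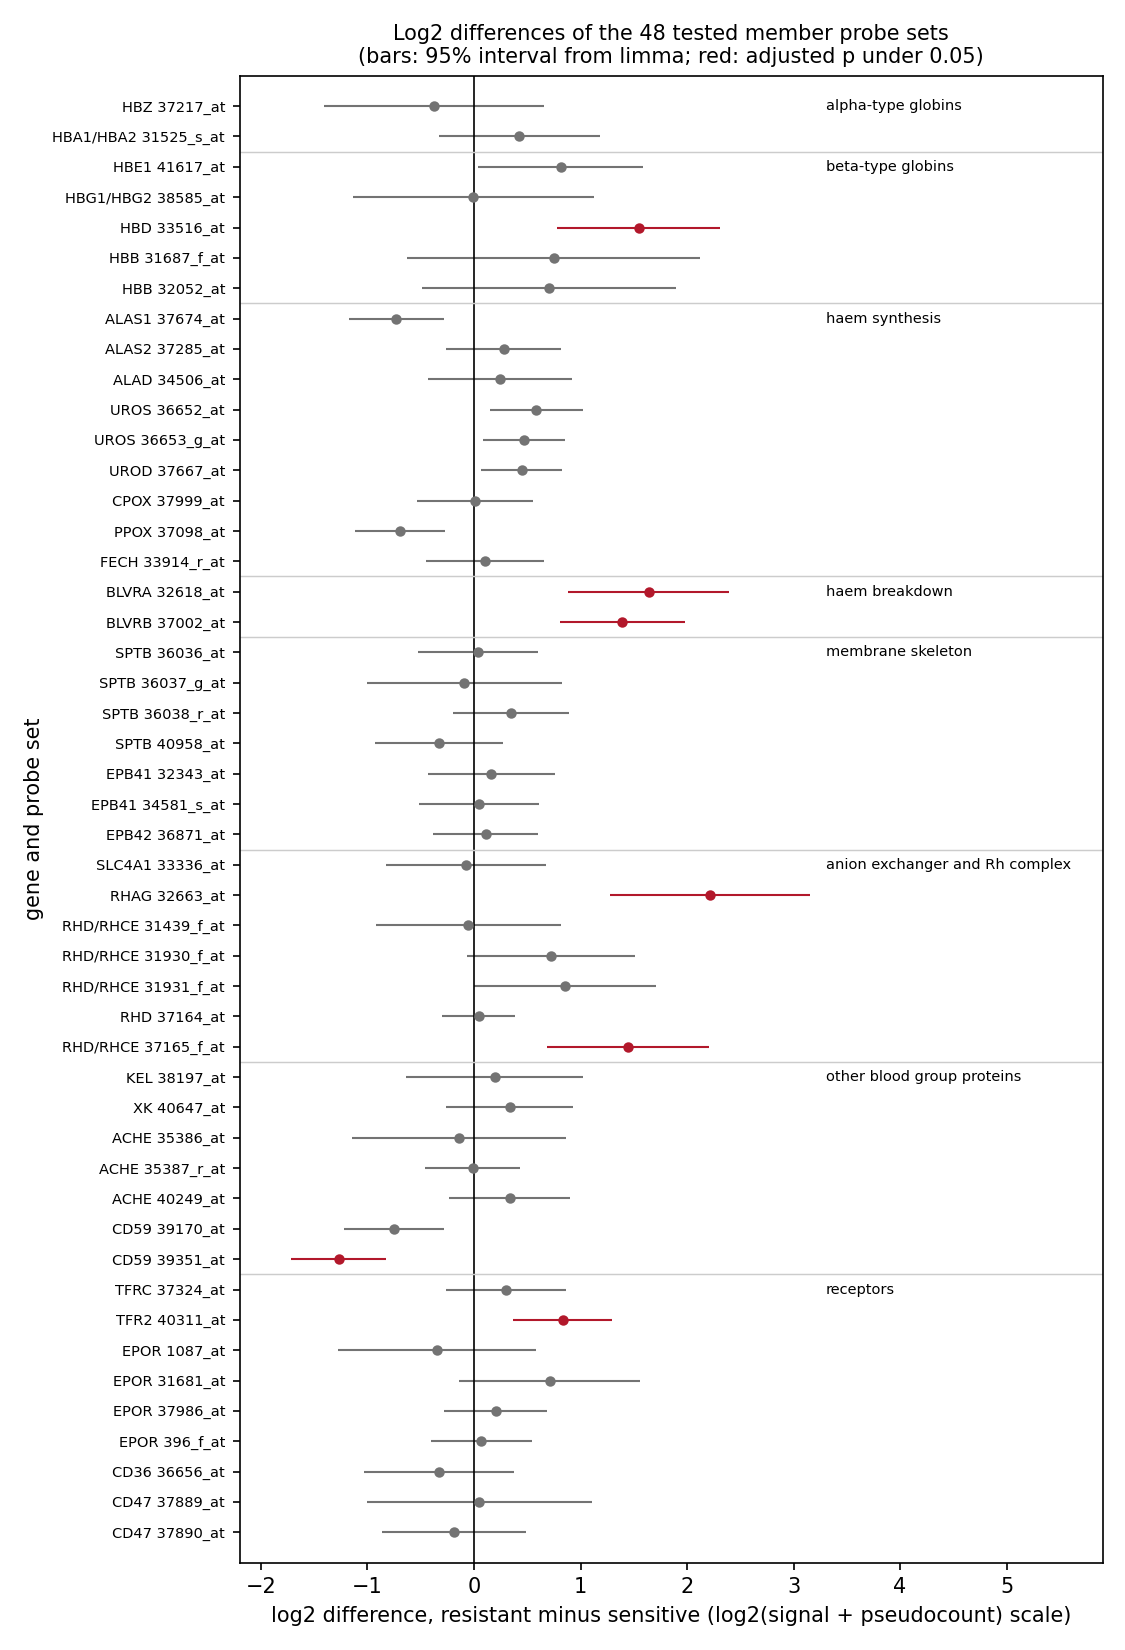
Log2 differences (resistant minus sensitive, log2(signal + pseudocount) scale, x axis) of the 48 tested member probe sets in order of role (y axis); points are limma estimates from 5 arrays in each group, bars their 95% intervals, and red marks an adjusted p under 0.05. The 6 red points on the right lie between 0.83 for TFR2 and 2.22 for RHAG, and the red point on the left is CD59 at -1.27.

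HBD, BLVRA, BLVRB and RHAG were called higher through a probe set of their own and have an entry in the promoter table. The 250 bases before their start sites are shown because these 4 genes moved in the same direction and red cell factors are known to bind short motifs in such windows. RHD and RHCE have entries too but share their called probe set, and CD59 has entries but fell, so their windows are not shown. Sequences are from RefSeq, build GRCh38.p14, 5′ to 3′ on the strand of the gene. HBD lies at chr11:5234484-5234733 (minus strand), BLVRA at chr7:43758430-43758679 (plus strand), BLVRB at chr19:40465746-40465995 (minus strand) and RHAG at chr6:49636840-49637089 (minus strand). Capitals mark, on either strand, the GATA motifs (AGATAA or AGATAG, or TGATAA or TGATAG) and matches to CCNCNCCC, of which the CACCC motif CCACACCC is a case.
HBD: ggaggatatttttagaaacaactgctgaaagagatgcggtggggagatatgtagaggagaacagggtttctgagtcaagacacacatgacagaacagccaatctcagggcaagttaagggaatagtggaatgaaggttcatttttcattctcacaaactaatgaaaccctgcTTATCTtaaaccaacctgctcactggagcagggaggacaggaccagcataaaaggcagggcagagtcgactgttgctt
BLVRA: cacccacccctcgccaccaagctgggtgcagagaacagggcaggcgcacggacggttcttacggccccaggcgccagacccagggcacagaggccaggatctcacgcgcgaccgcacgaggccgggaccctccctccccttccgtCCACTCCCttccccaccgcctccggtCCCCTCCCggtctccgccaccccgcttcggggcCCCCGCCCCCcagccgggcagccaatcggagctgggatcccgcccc
BLVRB: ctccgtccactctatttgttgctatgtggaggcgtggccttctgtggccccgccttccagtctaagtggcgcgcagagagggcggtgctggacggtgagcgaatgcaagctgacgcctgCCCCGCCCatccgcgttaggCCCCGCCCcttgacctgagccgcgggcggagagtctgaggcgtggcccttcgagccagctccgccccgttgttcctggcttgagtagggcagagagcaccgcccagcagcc
RHAG: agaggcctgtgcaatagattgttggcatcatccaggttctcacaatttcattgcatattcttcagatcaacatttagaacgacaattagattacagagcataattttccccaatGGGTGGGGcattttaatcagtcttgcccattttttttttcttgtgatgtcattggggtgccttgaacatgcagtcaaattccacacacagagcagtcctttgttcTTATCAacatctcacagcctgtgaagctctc

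The windows of HBD and RHAG held 1 GATA motif each, on the opposite strand, at positions -78 to -73 and -31 to -26 from the start site. Those of BLVRA and BLVRB held 0, and had 4 and 2 matches to CCNCNCCC, 2 of which overlap in BLVRA. RHAG had 1 such match and HBD 0. HBD also held CATAAA at -32 to -27 and CCAAT at -153 to -149. Of the 35116 windows of this length in the table, 22.3% held a GATA motif and 53.4% CCNCNCCC, 2.97% CCACACCC, 32% CCAAT and 18.2% TATAAA or CATAAA. Of the 43 windows of the 26 members with an entry, some of which overlap, 48.8% held a GATA motif, 72.1% CCNCNCCC, 9.3% CCACACCC, 44.2% CCAAT and 23.3% TATAAA or CATAAA. These matches describe letters only and were not tested against the signals.

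Among the globins, the probe set of HBD was the single one that passed, and its signals stayed low. HBD encodes the beta-type chain of the minor adult haemoglobin. In replicate order it gave 80.7, 65.1, 164, 79.6 and 334 in sensitive and 269, 444.5, 671, 688 and 1224 in resistant arrays. The groups overlapped in 1 pair of arrays, sensitive replicate 5 above resistant replicate 1, and only resistant replicates 3 and 5 were above their limit. The log2 difference was 1.55 (SE 0.35, adjusted p = 0.0174, limma). Against the limit the rise was 1.2-fold, no strict bound because the other resistant arrays were under theirs. Without sensitive replicate 2 the call was lost (adjusted p = 0.0508). HBD and HBB are close in sequence, and cross-hybridisation between their probe sets was not tested.

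HBB, the adult beta chain, has 2 probe sets, and neither was called. The first, 31687_f_at, gave 148, 262, 1484, 196 and 319 in sensitive and 162, 545, 2014.5, 286 and 1704.5 in resistant arrays (difference 0.75, SE 0.63, adjusted p = 0.617, limma). Its highest signals were on replicate 3 of both groups and on resistant replicate 5. The second, 32052_at, gave 555, 458, 404.5, 54.7 and 64.2 against 119.7, 573, 1604, 306 and 480.5 (difference 0.70, SE 0.54, adjusted p = 0.581), with resistant replicate 3 highest. The differences were within the spread between arrays, and their 95% intervals, -0.63 to 2.12 and -0.49 to 1.89, include 0 as well as the value of HBD.

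The embryonic epsilon gene HBE1 gave 311, 67.7, 122, 369 and 133 in sensitive and 706, 729, 316, 191 and 289.6 in resistant arrays. Resistant replicates 1 and 2 stood above the rest and above their limit, and the difference was not called (0.81, SE 0.36, adjusted p = 0.251, limma). The probe set shared by the foetal genes HBG1 and HBG2 gave 57.0, 37.1, 652, 81.4 and 209 against 254, 20.4, 594, 71.3 and 73.0. Replicate 3 was highest in both groups here too, and the log2 difference was -0.0076 (SE 0.52, adjusted p = 0.996).

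On the alpha side, the probe set shared by HBA1 and HBA2 gave 289, 551, 183, 855.5 and 276 in sensitive and 479.5, 747.5, 664, 771 and 261 in resistant arrays (difference 0.43, SE 0.35, adjusted p = 0.6, limma). The groups overlapped, with 2 sensitive and 4 resistant arrays above the limit. The embryonic zeta gene HBZ gave 450.4, 239.7, 948, 147 and 628 against 92.7, 95.5, 468, 743 and 398, a difference of -0.38 (SE 0.47, adjusted p = 0.768), with 3 sensitive and 1 resistant arrays above the limit. None of the 7 globin probe sets was above the limit on all 10 arrays.

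**Figure D2:**
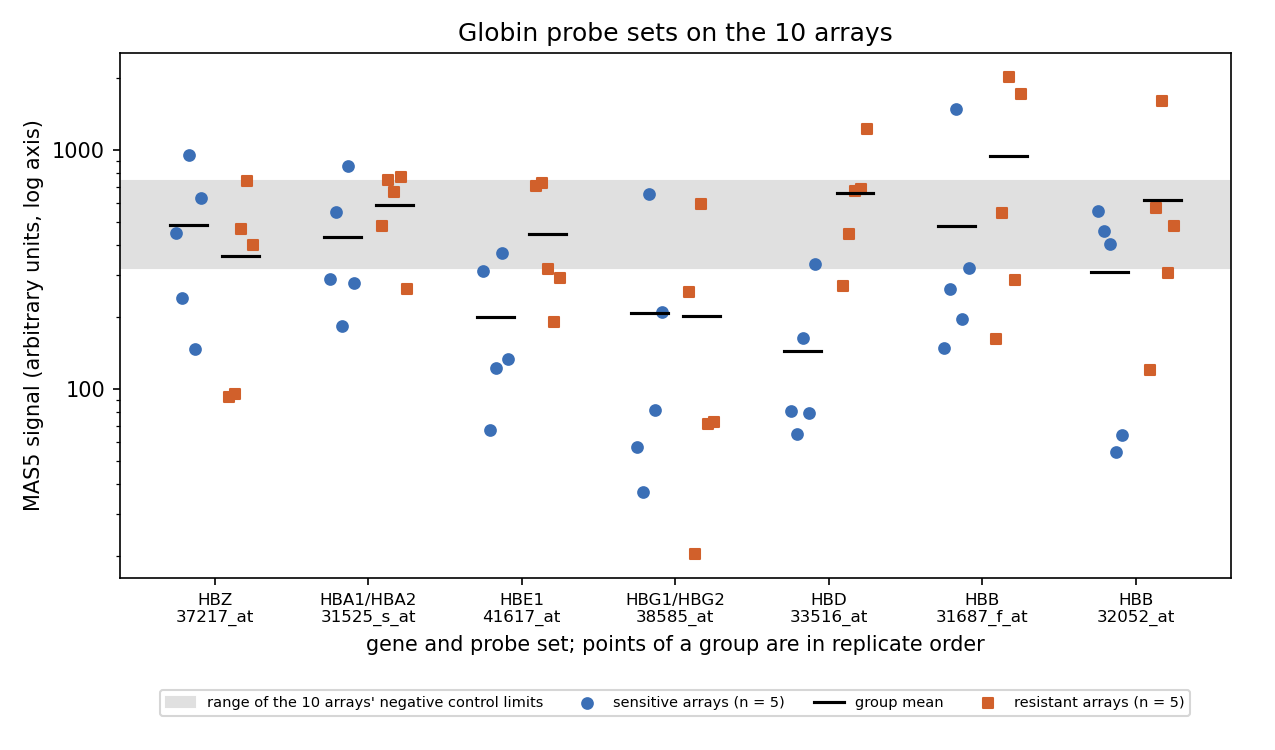
MAS5 signals (arbitrary units, log axis) of the 7 globin probe sets (x axis); blue circles are the 5 sensitive and orange squares the 5 resistant arrays in replicate order, black lines group means, and the grey band the range of the arrays' limits, 319.7 to 739.8. Most points lie in or under the band, and HBD is the globin with a called difference.

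Whether HBD moved apart from other globins was tested within arrays, as the difference between 2 log2 values of the same array, in a family of 7 such contrasts chosen after the values had been seen. Of these, 2 join a gene seen higher with one seen lower (UROD with PPOX, BLVRB with ALAS1) and are described without their p-values. Those p-values count in the adjustment alone, where they make adjusted p-values of other contrasts smaller. HBD minus HBB 32052_at was higher by 0.84 in resistant arrays (two-sided exact permutation p = 0.278, adjusted p = 0.278), and HBD minus HBA1/HBA2 by 1.12 (exact permutation p = 0.143, adjusted p = 0.2). Neither passed, so a change of HBD beyond that of these relatives was not shown. The alpha-type genes lie together on chromosome 16 and the beta-type genes on chromosome 11. Of 17 protein-coding neighbours of the alpha-type cluster (up to 10 on each side), 7 were measured and 0 were called by limma, with a median difference of 0.087. Among them NPRL3, whose introns hold enhancers of the cluster, was 1259.5 ± 239.9 and 1340.0 ± 211 (SD, n = 5; adjusted p = 0.882, limma). Of 20 neighbours of the beta-type cluster, 0 had a probe set of their own.

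The haem synthesis enzymes gave no call, although 5 of their 9 probe sets had an unadjusted p under 0.05 in limma, 3 with positive and 2 with negative differences. Of all tested probe sets 17.9% had such a p, and 2 of the 9 measure the same gene, UROS. ALAS1, the housekeeping aminolevulinate synthase that opens the pathway, gave 7559.5, 7746, 7320.3, 5561 and 8442 in sensitive and 5732, 3785.5, 4878, 3115 and 4636 in resistant arrays. The groups overlapped only because sensitive replicate 4 was under resistant replicate 1 (log2 difference -0.73, SE 0.20, adjusted p = 0.0531, limma). Without sensitive replicate 4 or resistant replicate 1 the difference was called (adjusted p = 0.039 and 0.0404). In all, 6 of 17 alternative settings called it, quantile normalization among them (adjusted p = 0.0472) but not scaling to a common median (0.0738). ALAS2, the form of red cell precursors, gave 447, 618, 1235, 921 and 836 against 1201, 837, 906.5, 1149 and 768, so that the resistant range lay inside the sensitive one (0.28, SE 0.25, adjusted p = 0.644).

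UROS and UROD, which close the porphyrin ring and trim its side chains, had higher means in resistant arrays without passing the test. UROS 36653_g_at gave 1335, 1849, 1816, 1401 and 1462 against 2247, 2102, 1911.5, 2814 and 2038, with no overlap (0.47, SE 0.18, adjusted p = 0.167, limma). Its two-sided exact permutation p was 0.00794, the smallest that 5 against 5 arrays allow. UROS 36652_at was 2453 ± 637 and 3664 ± 444 (SD, n = 5; 0.58, SE 0.20, adjusted p = 0.121 in limma). It was called in 1 of 17 alternative settings, the fit without sensitive replicate 3 (adjusted p = 0.049, limma). The mean of both UROS probe sets was not called (adjusted p = 0.0797, limma). UROD gave 5930.3, 6712, 5888, 7002 and 7785 against 8328, 9187, 7434, 10919 and 9868 and overlapped in 1 pair of arrays (0.45, SE 0.17, adjusted p = 0.183).

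PPOX, the oxidase that acts just before ferrochelatase, had a negative difference. It gave 1352, 2017, 2279, 2162 and 1668 in sensitive and 1234, 934, 922.5, 1304 and 1182 in resistant arrays, without overlap. The difference of -0.70 (SE 0.19) missed the threshold narrowly (adjusted p = 0.0501, limma). It was called in 6 of 17 alternative settings and not in 11. Among the 6 were the fits without sensitive replicate 1 (adjusted p = 0.0313), with scaling to a common median (0.0236) and with quantile normalization (0.0182). UROD minus PPOX within arrays was higher by 1.14 in resistant arrays, a description of a pair picked for its opposite signs.

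The remaining enzymes showed no difference beyond the spread of their arrays. CPOX was 3430.0 ± 1093.5 and 3438 ± 967 (SD, n = 5; difference 0.0071, 95% interval -0.54 to 0.55). Under scaling to a common median its difference turned to -0.12. ALAD ranged from 420.4 to 1456 in sensitive and 652 to 1533 in resistant arrays (0.24, adjusted p = 0.775, limma). FECH, the ferrochelatase that inserts the iron, ranged from 237 to 562 and from 240.4 to 635, with 1 array of each group above its limit (0.10, adjusted p = 0.898).

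Both biliverdin reductases rose. BLVRA, which turns biliverdin into bilirubin, gave 599, 721, 305, 1364 and 1616 in sensitive and 3331, 3065, 2105, 2690.4 and 2651 in resistant arrays. Every resistant array was above every sensitive array (log2 difference 1.64, SE 0.35, adjusted p = 0.0118, limma). BLVRB, a reductase of flavins and of another biliverdin isomer, abundant in red cells, gave 2203, 1432, 974, 2644 and 2533 against 4753, 4477, 4625, 4822 and 6636, again without overlap (1.39, SE 0.27, adjusted p = 0.00662). Both were called under all 17 alternative settings of the limma fit, with adjusted p-values of at most 0.0348 and 0.0212. BLVRB minus ALAS1 within arrays was higher by 2.12 in resistant arrays, again a pair picked for its opposite signs. Of the haem oxygenases that supply biliverdin, the inducible HMOX1 was 238 ± 149 and 225 ± 191 with 1 of 10 arrays above the limit, and the constitutive HMOX2 was 2529 ± 395 and 2596 ± 268 (SD, n = 5; adjusted p = 0.947 and 0.943, limma).

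**Figure D3:**
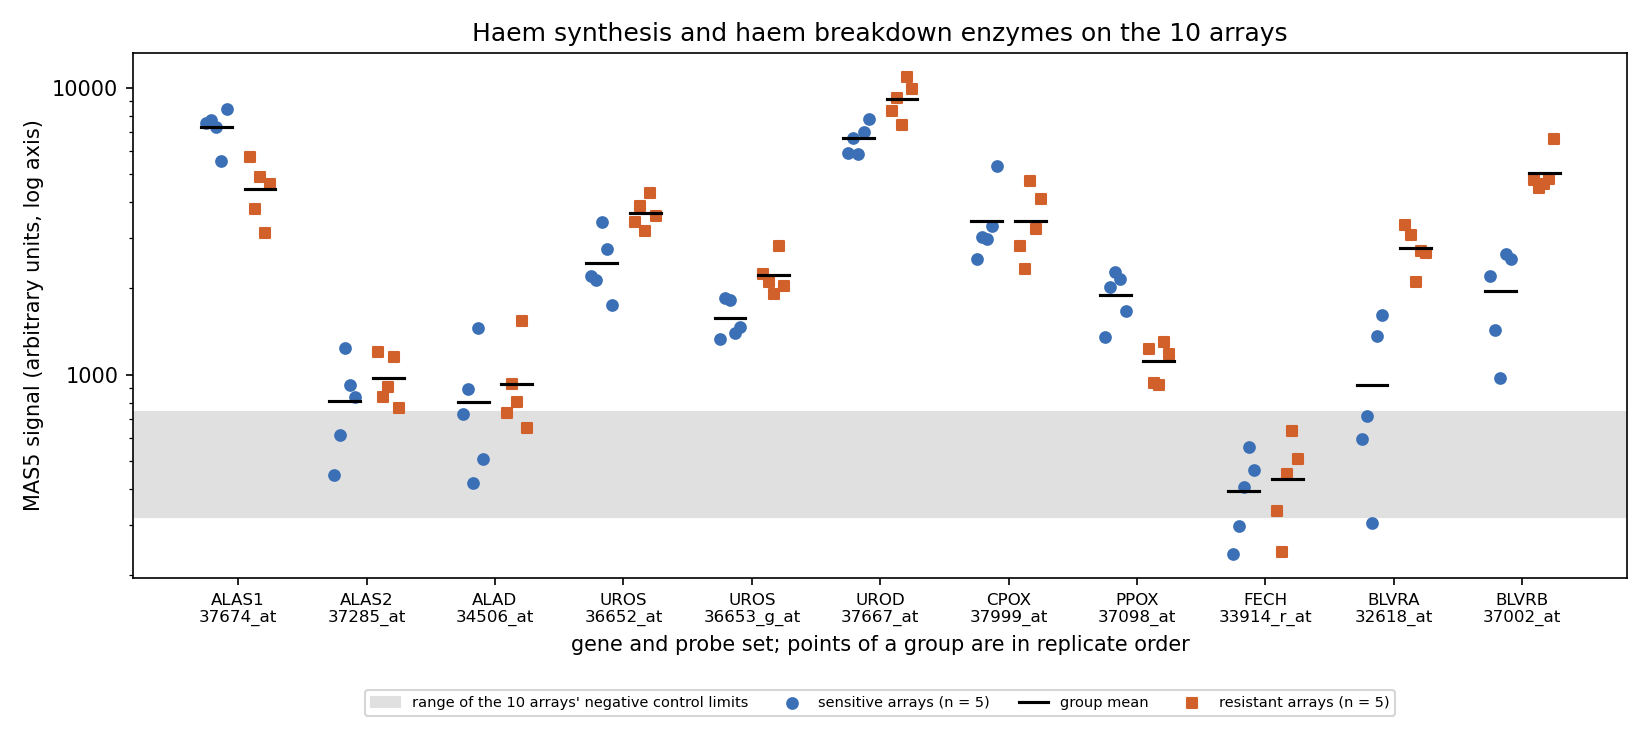
MAS5 signals (arbitrary units, log axis) of the haem synthesis enzymes in pathway order and, at the right, the 2 biliverdin reductases (x axis); blue circles are sensitive and orange squares resistant arrays (n = 5 each), black lines group means, and the grey band the range of limits. ALAS1 and PPOX have lower and UROS and UROD higher resistant means, none of them called, while BLVRA and BLVRB are called and their groups do not overlap.

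The skeleton genes among the members were not called. SPTB, the beta chain of red cell spectrin, has 4 probe sets with differences from -0.33 to 0.35. The 1 of them that was above the limit on all 10 arrays, 36038_r_at, was 789.9 ± 285 and 1029 ± 319.7 (SD, n = 5; adjusted p = 0.547, limma). EPB41, which ties spectrin to actin, was 893 ± 268 and 1037 ± 386 in its brighter probe set (0.16, adjusted p = 0.842). Its dimmer probe set differed by 0.048, with 2 sensitive and 0 resistant arrays above the limit. EPB42 was above the limit on 0 of 10 arrays, with signals of 24.5 to 118 and 36.1 to 162.

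Partners of this skeleton were taken from a list of 18 genes of which 16 were measured: 5 rose and 1 fell (37.5% called, beside 8.4% of 8226 genes), with a median difference of 0.32, beside 0.033. This list and those below were chosen with earlier results of these data known. Their shares beside that of all genes are therefore descriptions and no test of enrichment. ADD2, an adducin chain of red cells, rose from 1075 ± 389 to 2914 ± 544 (SD, n = 5; log2 difference 1.40, adjusted p = 0.00453, limma), in 2 of its 3 probe sets. The more widely expressed ADD3 rose by 0.65 in 1 of 2 probe sets (adjusted p = 0.0443). DMTN, or dematin, which bundles actin, rose from 478 ± 208 to 1449 ± 517 (adjusted p = 0.0136), and MPP1, a membrane palmitoylated scaffold of red cells, rose by 0.96 (adjusted p = 0.0222). TMOD1, which caps actin filaments, rose from 74.7 ± 53.2 to 507 ± 161 (adjusted p = 0.000683), with 0 sensitive and 2 resistant arrays above the limit. Against the limit the value was 1-fold, with the other resistant arrays under their limit, so the limit gives no size for this rise. EPB41L2, a relative of EPB41 found in many tissues, fell from 6355 ± 1467 to 257 ± 153, with 0 resistant arrays above the limit (at least 11.7-fold, adjusted p = 2.02e-06). ANK1, the ankyrin that anchors spectrin, was 633 ± 483 and 526 ± 315 and not called. The number called in this list was between 4 and 8 over the alternative settings.

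RHAG had the largest log2 difference of the 48 member probe sets. It encodes the glycoprotein that carries the Rh proteins to the cell surface. It gave 29.8, 102, 567, 60.8 and 60.0 in sensitive and 416.5, 1295.5, 1566, 1056 and 858 in resistant arrays. All resistant and 0 sensitive arrays were above their limit, and the groups overlapped only because sensitive replicate 3 exceeded resistant replicate 1. The difference was 2.22 (SE 0.43, adjusted p = 0.00673, limma), at least 1.96-fold against the limit, and it was called under all 17 alternatives, with adjusted p-values of at most 0.0219.

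RHD and RHCE, which carry the D and the C and E antigens, are nearly identical. The probe set that names RHD alone was between 18.4 and 61.1 on the 10 arrays, under the limit on each. Of the 4 shared probe sets, 37165_f_at rose. It gave 119, 132, 231, 187 and 169.5 in sensitive and 845, 889.5, 1406, 308 and 299.8 in resistant arrays. The groups did not overlap, and resistant replicates 1, 2 and 3 were above the limit (1.45, SE 0.35, adjusted p = 0.024, limma). Against the limit the rise was 1.3-fold, no strict bound because the other resistant arrays were under theirs. The call was lost without sensitive replicate 1 or 2 (adjusted p = 0.0636 and 0.0626), without resistant replicate 1 or 2 (0.0625 and 0.0649) and with quantile normalization (0.0561). The other 3 shared probe sets, 31439_f_at, 31930_f_at and 31931_f_at, differed by -0.053, 0.72 and 0.85 and were not called (adjusted p = 0.975, 0.33 and 0.281).

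SLC4A1, the anion exchanger around which the membrane complex is built, ranged from 331 to 486 in sensitive and 176.5 to 964 in resistant arrays, with 1 array of each group above the limit (-0.073, SE 0.34, adjusted p = 0.953, limma). RHAG minus SLC4A1 within arrays was higher by 2.29 in resistant arrays and did not pass over the 7 contrasts (exact permutation p = 0.0238, adjusted p = 0.0555). This pair, too, was picked after the values had been seen, with RHAG as the member of largest difference, so its p-values are no independent test. The adjusted p is also made smaller by the 2 contrasts of opposite signs. XK, the membrane partner of the Kell protein, was 5354 ± 2206 and 6435 ± 1239 (SD, n = 5; 0.34, adjusted p = 0.603 in limma). KEL itself was above the limit on 0 of 10 arrays. ACHE, the acetylcholinesterase that also sits on red cells, was above the limit on 1 of 10 arrays with 1 of its 3 probe sets and on 0 with the others.

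CD59 was the member called lower. Its probe set 39351_at gave 6571, 5188, 3408, 3944 and 5687 in sensitive and 1997, 1950.3, 1671, 2003 and 2056 in resistant arrays, without overlap (log2 difference -1.27, SE 0.20, adjusted p = 0.00189, limma), and it was called under all 17 alternatives. The other, 39170_at, gave 3177, 2506, 2215, 1846.5 and 2230.0 against 1145, 1715, 1024, 1208 and 1852.5 and overlapped only because resistant replicate 5 exceeded sensitive replicate 4. It missed the threshold (-0.75, SE 0.22, adjusted p = 0.0596). It was called in 5 of 17 alternative settings, among them the fit without resistant replicate 5 (adjusted p = 0.0453), and not in 12. Within arrays, 39351_at minus 39170_at had a mean of 1.00 in sensitive and 0.48 in resistant arrays, and that change did not pass (exact permutation p = 0.0317, adjusted p = 0.0555). The mean of both probe sets fell by 1.01 on the log2 scale (adjusted p = 0.00448). CD55, the other complement shield of the red cell surface, was 3112 ± 818 and 2759.6 ± 571 (SD, n = 5) and not called (adjusted p = 0.811 in limma). Of other blood group and complement surface genes, 18 of 20 were measured, with 1 higher (ABCG2, given with the iron and haem genes) and 1 lower (11.1% called, near the 8.4% of all genes), a median of -0.18. The lower one, BSG or basigin, fell from 15337 ± 1182 to 9774 ± 1325 (adjusted p = 0.0311).

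**Figure D4:**
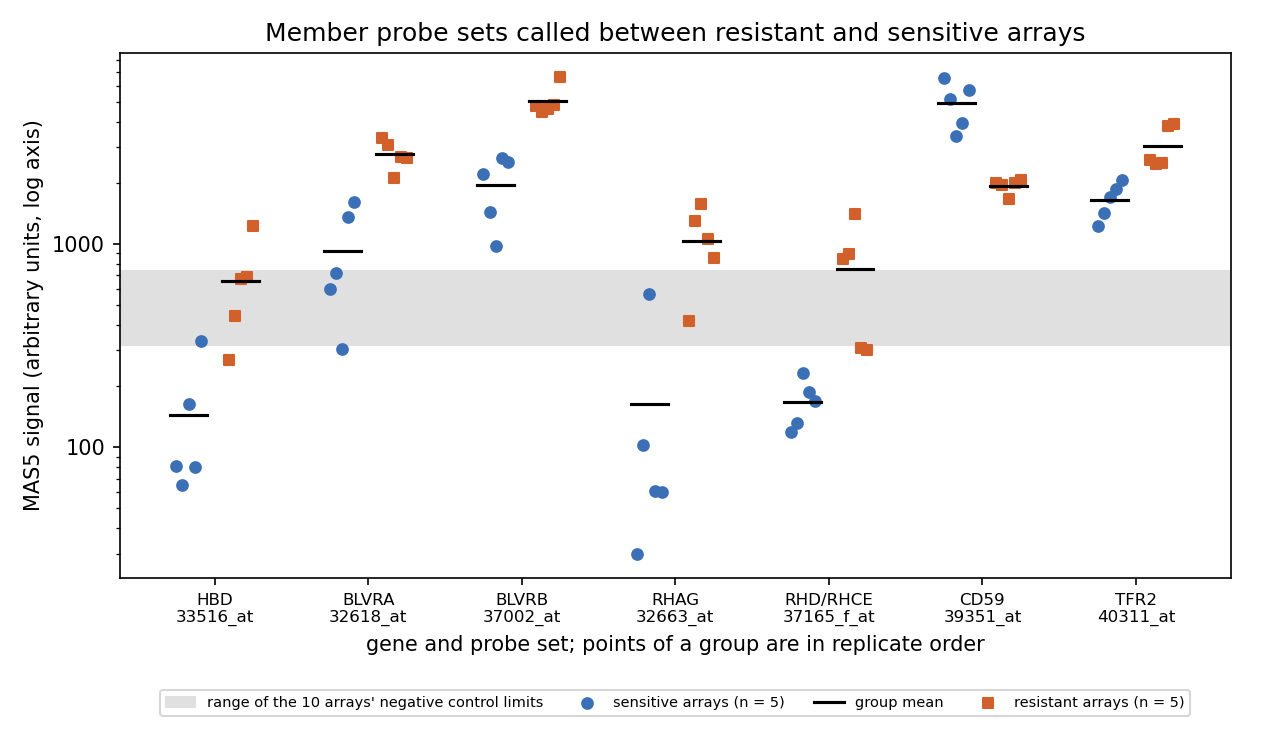
MAS5 signals (arbitrary units, log axis) of the 7 called member probe sets (x axis); blue circles are sensitive and orange squares resistant arrays in replicate order (n = 5 each), black lines group means, and the grey band the range of limits, 319.7 to 739.8. HBD, RHAG and RHD/RHCE lie in or under the band in sensitive arrays, the groups of BLVRA, BLVRB and TFR2 are separated, and CD59 is lower on every resistant array.

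The 2 transferrin receptors gave different calls. TFR2, an iron sensor that also associates with the erythropoietin receptor, gave 1224, 1418, 1711, 1856.5 and 2056 in sensitive and 2584, 2479, 2489, 3813 and 3880.0 in resistant arrays, without overlap (0.83, SE 0.21, adjusted p = 0.0332, limma). The call was lost without sensitive replicate 1, 2 or 3 (adjusted p = 0.0873, 0.0889 and 0.0539) and without resistant replicate 4 or 5 (0.078 and 0.0859). TFRC, the receptor for iron uptake, gave 42309, 32985, 24166, 16243 and 34187 against 32366, 37959, 44976, 28031 and 34403 and was not called (0.30, SE 0.26, adjusted p = 0.63). TFR2 minus TFRC within arrays was higher by 0.53 in resistant arrays and did not pass (exact permutation p = 0.214, adjusted p = 0.25), so a difference between the receptors in their change was not shown.

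The array also carries 3 control probe sets along the TFRC transcript. Their signals were 13296 ± 5319 and 13277 ± 4561 at the 3′ end, 7985.5 ± 3492 and 8396 ± 3848 at the 5′ end and 4580.5 ± 1412.5 and 4387 ± 1475 in the middle (SD, n = 5; exact permutation, two-sided, p = 0.913, 0.857 and 0.905). In all 4 TFRC probe sets sensitive replicate 4 was the lowest array and resistant replicate 3 the highest. The ratio of 3′ to 5′ signal, a measure of RNA integrity, was 1.68 ± 0.27 for the sensitive line and 1.67 ± 0.326 for the subline (SD, n = 5; exact permutation p = 0.952).

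**Figure D5:**
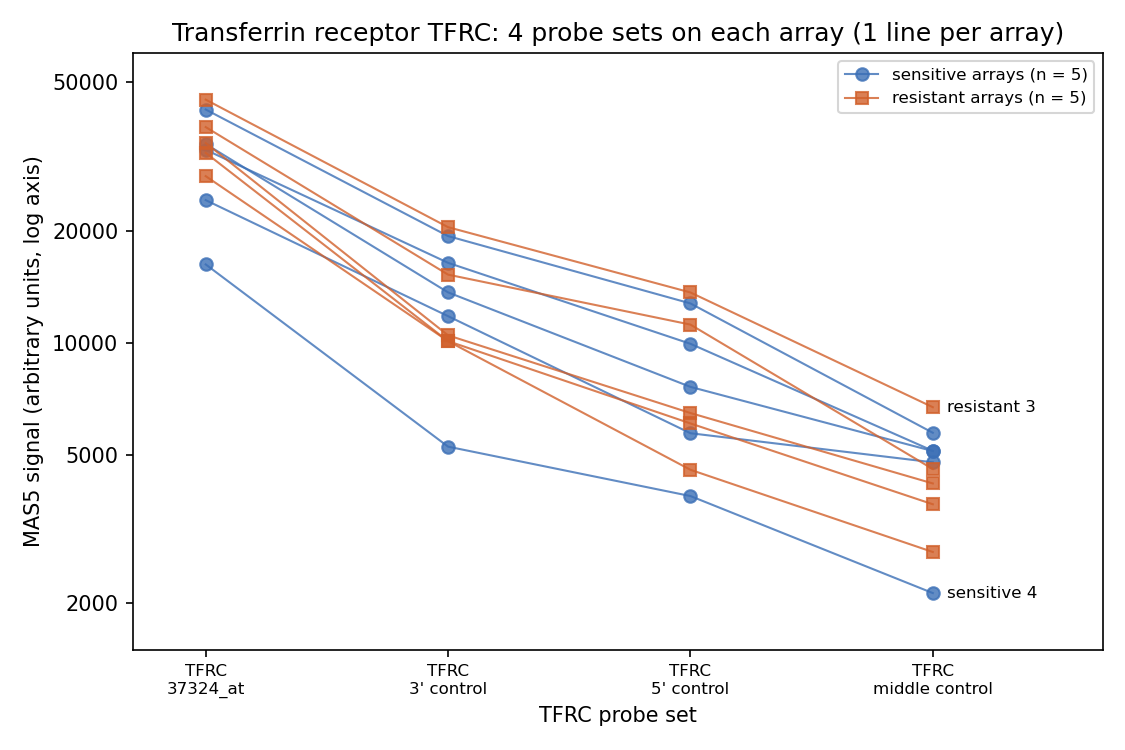
MAS5 signals (arbitrary units, log axis) of the 4 TFRC probe sets (x axis: the tested 37324_at and the 3′, 5′ and middle controls), with 1 line per array, blue for sensitive and orange for resistant (n = 5 each). Lines of both groups mix, sensitive replicate 4 is lowest throughout and resistant replicate 3 highest.

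EPOR, the erythropoietin receptor, has 4 probe sets, and 0 were called by limma (also 0 at an unadjusted p under 0.05). Those above the limit on all arrays were 396_f_at, at 3103 ± 633 and 3272 ± 738 (0.069, 95% interval -0.41 to 0.55), and 37986_at, at 928 ± 276.5 and 1065 ± 217 (0.20, 95% interval -0.28 to 0.69; SD, n = 5). The others, 1087_at and 31681_at, differed by -0.34 and 0.71. The difference of 396_f_at turned to -0.058 under scaling to a common median. CD47, the surface signal against phagocytosis, was 4954 ± 2716 and 4082 ± 1136 in its bright probe set (-0.19, adjusted p = 0.84, limma). Its dim probe set differed by 0.051 and was above the limit on 0 of 10 arrays. CD36, the scavenger receptor, was above the limit on 0 of 10 arrays.

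Of 18 genes listed for signalling of EPOR, which include its ligand EPO and the separate kinase KIT, 17 were measured. Of these, 6 rose and 0 fell (35.3% called, beside 8.4% of all genes, median 0.17): ID1, SOCS1, STAT5A, SOCS2, PIM1 and BCL2L1. STAT5A, the transcription factor that the receptor activates, rose by 1.48, and the feedback inhibitors SOCS1 and SOCS2 rose by 2.08 and 1.33 (adjusted p = 0.000706, 0.00171 and 0.00079, limma). ID1, an inhibitor of differentiation factors, rose from 6899 ± 2645 to 61357.5 ± 9360.5 (SD, n = 5; adjusted p = 2.77e-05 in limma). The survival genes PIM1 and BCL2L1 rose by 1.23 and 1.11. SOCS1 and BCL2L1 were called in 1 of 2 probe sets each. So was SOCS3, another feedback inhibitor, which counts as not called because its brighter probe set differed by 0.28 (adjusted p = 0.82, limma), while the dimmer one differed by 1.87 (adjusted p = 0.00121). JAK2, the kinase bound to EPOR, was 420.1 ± 96.4 and 517 ± 114 and not called. Several of these genes are targets of other receptors and kinases as well. The list was chosen with earlier results of these data known, so its share is a description only.

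Of 21 erythroid transcription factors 14 were measured, 3 rose and 2 fell (35.7% called, beside 8.4% of all genes, median 0.23). The list was chosen with earlier results of these data known. Of the 14, 13 were above the limit on all 10 arrays, beside 4971 of the 12558 tested probe sets, so the shares were not matched for brightness. KLF1, an activator of adult globin genes, rose by 2.87, TAL1 by 1.98 and NFE2 by 1.38 on the log2 scale (adjusted p = 0.000206, 0.000741 and 0.0228, limma). LMO2, which bridges TAL1 and GATA1, fell from 6527 ± 2449 to 1498 ± 468, and IKZF1 fell by 1.34 (SD, n = 5; adjusted p = 0.00111 and 0.00763 in limma). GATA1 was 1872 ± 1705 and 3882 ± 690.4 and was not called (1.49, adjusted p = 0.14). BCL11A, a repressor of the foetal globin genes, was 6532 ± 1198 and 7379.5 ± 3018, also not called.

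Of 17 red cell enzymes and globin chaperones 14 were measured, 0 rose and 5 fell (35.7% called, beside 8.4% of all genes, median -0.45). The list was chosen with earlier results of these data known. Its globin chaperone, AHSP, had no probe set of its own, so the 14 are enzymes only. CA2, a carbonic anhydrase, fell from 122107 ± 12928 to 3212 ± 835 (SD, n = 5; adjusted p = 5.84e-08, limma), and PRDX2, an abundant peroxiredoxin of red cells, fell from 36033 ± 2911 to 12099 ± 1796 (adjusted p = 7.14e-05). The sugar phosphate enzymes PGD and GPI fell by 0.91 and 0.72 and the glutathione peroxidase GPX1 by 0.60 on the log2 scale. The count was 3 without any single one of sensitive replicates 1, 2 and 5 and resistant replicates 1, 2, 3 and 4.

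Of 30 genes of iron and haem handling 12 were measured and 1 rose, a share of 8.33% (median -0.036), near the 8.4% of all genes. It was ABCG2, a membrane exporter of haem precursors and drugs, which rose from 279.8 ± 217 to 1358 ± 326 (SD, n = 5; at least 2.73-fold, adjusted p = 0.0025, limma). FTL, the ferritin light chain that stores iron, was 116735 ± 17596 and 96253 ± 7959.8, and ISCU, a scaffold of iron-sulphur clusters, 15652 ± 612 and 10096 ± 2821. Neither was called (adjusted p = 0.465 and 0.0809).

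Markers of other blood lineages differed in how many were called, beside 8.4% of all genes. Of 14 measured granulocytic markers 10 were called lower and 1 higher, and their summed signal ran from 212099 to 505832 in sensitive and from 3550.1 to 6696 in resistant arrays. Of 9 megakaryocytic markers 1 was called higher, ITGA2B, and 6 (GP1BA, GP9, PF4, PPBP, VWF and SELP) were above the limit on 0 arrays. ITGA2B alone went from 1169 ± 337 to 13396 ± 3366 (SD, n = 5) and made up most of the resistant sum. The sums of these 9 were 1820.3 to 3682 and 12902.5 to 20646. Of 6 measured stem and progenitor markers 3 were called higher, of 7 monocytic markers 1, and of 4 B lymphoid and 5 T lymphoid markers 0. The 3 were MECOM (2 of 4 probe sets), TEK (1 of 2) and FLT3 (1 of 2, with 0 sensitive and 1 resistant arrays above the limit). The other 3, CD34, KIT and PROM1, were not called and had negative differences (-0.15, -0.0084 and -0.59). The monocytic marker was AIF1, in 1 of 3 probe sets. The part of these cell states in the changes of the red cell genes was not tested. In bulk RNA, fewer cells of a type and less RNA per cell cannot be told apart. The share of probe sets above the limit was 51.0% to 61.3% over the 10 arrays, with group means of 55.1% and 54.9%.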

How the data were processed

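The authors deposited 1 intensity per probe set and array, a MAS5 signal on a linear scale per the submitters' processing notes. MAS5 version and settings were not given in the sources used here. On the arrays, the 2% trimmed mean was 2501.33 to 2501.51 throughout, so the values had been brought to a common level before deposit. Of 12625 probe sets, 67 controls were left out of the test. Of the 12558 tested, the platform annotation, updated by Entrez identifier to the GRCh38.p14 gene table, gave 1 symbol for 10943, several for 545 and none for 1070. Groups and replicate numbers came from the sample titles, 5 arrays each, and the number of arrays limits the precision.

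Log2(signal + 114.8) was fitted in R 4.3.3 by limma 3.58.1 (lmFit, eBayes), without covariates, and adjusted over all tested probe sets by the Benjamini-Hochberg method. Every called member and every globin is given on each array, uncalled members above the limit on all 10 arrays by group means or array values, and the rest by range, count or difference. In lists, a gene stands for its probe set of highest mean log2 signal. Members and lists were chosen with earlier results of these data known, and the limit and the within-array contrasts after the data were seen. Whether equal replicate numbers pair the arrays is not known: correlations of their deviations were 0.078 to 0.398, all positive, over 4971 probe sets. The main fit took the arrays as unpaired. Alternatives were the scaling, the pseudocount, a filter on dim probe sets, the variance prior, a replicate block, leaving out each array, the mean over probe sets of a gene, probe sets that name 1 gene, and exact permutation tests.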

Additional observations from a re-analysis of the deposited data

Results flagged for a closer look

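Of 102 groups of 5 arrays (51 member probe sets in each line), 9 held an array far from the other 4, where chance sets apart about 1 group in 20. For HBB 31687_f_at, sensitive replicate 3 at 1484 lay above the others of its group, 148 to 319. For BLVRB, resistant replicate 5 at 6636 lay above the others of its group, 4477 to 4822. For SPTB 40958_at, sensitive replicate 1 at 335 lay above the others of its group, 47.9 to 103. For RHAG, sensitive replicate 3 at 567 lay above the others of its group, 29.8 to 102. For RHD/RHCE 31439_f_at, resistant replicate 5 at 166 lay below the others of its group, 1018 to 1235. For RHD/RHCE 31931_f_at, resistant replicate 3 at 96.6 lay below the others of its group, 439 to 629. For KEL, resistant replicate 2 at 46.8 lay below the others of its group, 307 to 439. For CD59 39351_at, resistant replicate 3 at 1671 lay below the others of its group, 1950.3 to 2056. For the middle TFRC control, sensitive replicate 4 at 2130.1 lay below the others of its group, 4779.9 to 5737. BLVRB, RHAG and CD59 39351_at were also called without the array named here (limma adjusted p = 0.0207, 0.000416 and 0.00604).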

How the results depend on the processing

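BLVRA, BLVRB, RHAG and CD59 39351_at kept direction and call under all 17 alternatives of the limma fit. The count of called members, 7, was 4 to 8 without single arrays (4 without sensitive replicate 2), 6 with probe sets that name 1 gene, and 7 to 10 otherwise. The count over all probe sets was 691 to 860 without single arrays and 794 to 1169 otherwise. Among lists, iron and haem handling went from 1 to 2 called with scaling to a common median, with the 40th percentile as pseudocount, without dim probe sets and with a trended robust prior, and was 1 to 2 without single arrays. Other blood group and complement surface genes went from 2 to 4 with scaling to a common median or quantile normalization and to 1 with the replicate block (1 to 3 without single arrays). Red cell enzymes went from 5 to 3 with the replicate block (3 to 5 without single arrays). PPOX, ALAS1 and CD59 39170_at, uncalled, were called without dim probe sets (adjusted p = 0.0183, 0.0204 and 0.0239, limma). There fewer probe sets are tested and the variance prior is fitted anew. With a trended robust prior over all probe sets PPOX and ALAS1 were called as well (adjusted p = 0.036 and 0.0114, limma). Small uncalled differences changed sign: CPOX to -0.12 (median scaling) and -0.019 (quantile), EPOR 396_f_at to -0.058 (median scaling) and SPTB to -0.0090 as the mean of its probe sets. Without single arrays, HBG1/HBG2 ranged from -0.37 to 0.38, CPOX from -0.12 to 0.17, EPOR 396_f_at from -0.049 to 0.19 and CD47 37890_at from -0.30 to 0.085. The cause of these changes was not tested. The replicate block gave 7 called members and 794 called probe sets in all. Whether equal numbers mark paired arrays was not settled: 3 of 5 sensitive arrays correlated best with their own number. Median scaling and quantile normalization moved the median of all probe sets from 0.029 to -0.071 and -0.023, and the share of higher among called ones from 59.6% to 50.9% and 55.1%. Low signal over background limits the globins, RHD/RHCE, KEL, EPB42 and CD36.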
